A study of Homo sapiens with 12 samples.

Results

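The genes described here are lysosome and autophagy genes: acid hydrolases, lysosomal membrane proteins, the TFEB family of transcription factors that drives their expression, and the proteins that build and fill the autophagosome. They were taken from a list of 46 gene symbols with these functions, drawn up with earlier results of these data known, and 31 of the 46 had a measured transcript cluster among the 14884 genes tested. The other 15, GAA, GLA, GLB1, GUSB, NAGLU, SCARB2, NPC1, NPC2, CLN3, ATP6V0D1, ATP6V1H, ATP6V1A, ATP6AP1, BECN1 and WIPI1, were not analysed here, so the proton pump that acidifies the lysosome (the V-ATPase) is not covered. RNA came from the human lines MDA-MB-231 and HCC70, both models of triple-negative breast cancer, after 72 hours in 500 nM JQ1 or vehicle (0.1% DMSO). JQ1 is a drug-like compound that competes with acetylated histone tails for the bromodomains of the BET proteins and so takes them off chromatin. Each of the 4 groups (MDA-MB-231 with vehicle, MDA-MB-231 with JQ1, HCC70 with vehicle, HCC70 with JQ1) had 3 Human Gene 2.0 ST arrays, and the labels name no genetic change in either line. JQ1 was used at 1 dose and 1 time, and each breast cancer background rests on 1 established line.

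The lysosome is an acid compartment in which proteases, glycosidases, sulfatases and lipid hydrolases break down what endocytosis and autophagy bring in. In autophagy a double membrane grows around cytoplasm: the ULK1 complex and a lipid kinase complex start it, ATG9A vesicles and the lipid transfer protein ATG2A feed it, and a conjugation system attaches ATG8 proteins such as LC3B to it before it fuses with lysosomes. TFEB, TFE3 and MITF bind E-box-like sites with a CACGTG core near many of these genes and are held in the cytoplasm when the kinase mTORC1 is active on the lysosome.

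All values are log2 array signals, so a difference of 1 is a 2-fold change, and only the values of a gene with itself are compared. A change is given as JQ1 minus vehicle ± the standard error (SE) of limma's coefficient, and a gene was called when its two-sided limma p, adjusted by Benjamini-Hochberg over all 14884 genes, was under 0.05. Whether the replicates of a group were separate cultures is not stated in the labels, so every p-value reflects only the spread among these arrays, which may be technical. Array medians lay between 6.16 and 6.26, and arrays of 1 group correlated at 0.989 to 0.995. Under vehicle, markers set the lines apart: EPCAM, an epithelial adhesion protein, had a mean of 7.41 in MDA-MB-231 and 10.31 in HCC70, and VIM, a mesenchymal filament protein, 10.42 and 7.13. Of 6 epithelial markers measured, 4 were called higher in HCC70 and 1 lower, and all 3 mesenchymal markers measured were called lower. Over all genes 23.8% were called higher in HCC70 and 23.2% lower. These lists moved under JQ1 as well. The summed linear signal of 6 epithelial markers (of 7 listed) was 2592 to 2791 under vehicle and 3524 to 3698 under JQ1 in MDA-MB-231, where 3 rose and EPCAM fell by 1.74, and 5185 to 5443 and 7069 to 7320 in HCC70, where 3 rose and KRT14 fell by 1.03. That of 3 mesenchymal markers (of 5) was 4453 to 4789 under vehicle and 2744 to 2897 under JQ1 in MDA-MB-231, where FN1 fell, and 721 to 766 and 114 to 148 in HCC70, where VIM and FN1 fell. The part of these shifts in the changes of lysosome and autophagy genes was not tested. Transcripts that BET inhibition is known to move did so in both lines: BRD2 rose by 0.86 and 1.22, HEXIM1 by 0.59 and 1.11, and MYC fell by 0.41 and 0.92, in MDA-MB-231 and HCC70 respectively.

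JQ1 moved lysosome and autophagy genes in both directions in MDA-MB-231 and mostly upward in HCC70. In MDA-MB-231, 6 of the 31 genes rose (CTSA, NEU1, ASAH1, SGSH, PSAP and GABARAP) and 7 fell (CTSS, CTSL, CTSZ, HEXA, UVRAG, ATG9A and TFE3), or 41.9% called in all against 27.8% of all genes tested, with 10.8% of all genes rising and 17.0% falling. The median change of the 31 genes was 0.055 against 0.017 over all genes. In HCC70, 12 rose (NEU1, CTSA, ASAH1, SGSH, PSAP, CD68, LAMP2, ATG2A, MAP1LC3B, GABARAPL1, SQSTM1 and MITF) and 3 fell (CTSS, CTSZ and UVRAG), or 48.4% against 21.7% of all genes, with 9.18% of all genes rising and 12.5% falling. The median change there was 0.20 against 0.0057 over all genes. Of the 31 genes 27 lay above the median level of all genes, where more genes are called: among these 27, 10 rose and 2 fell in HCC70 (37.0% and 7.41%, against 16.4% and 18.7% of all genes above the median), and 6 rose and 6 fell in MDA-MB-231 (22.2% each, against 16.0% and 27.3%). The split depended on the scaling: with each array centred on its median, 8 rose and 5 fell in MDA-MB-231 and 15 rose and 2 fell in HCC70, while the share of falls among all called genes went from 61.2% to 48.9% and from 57.7% to 43.9%.

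**Figure D1:**
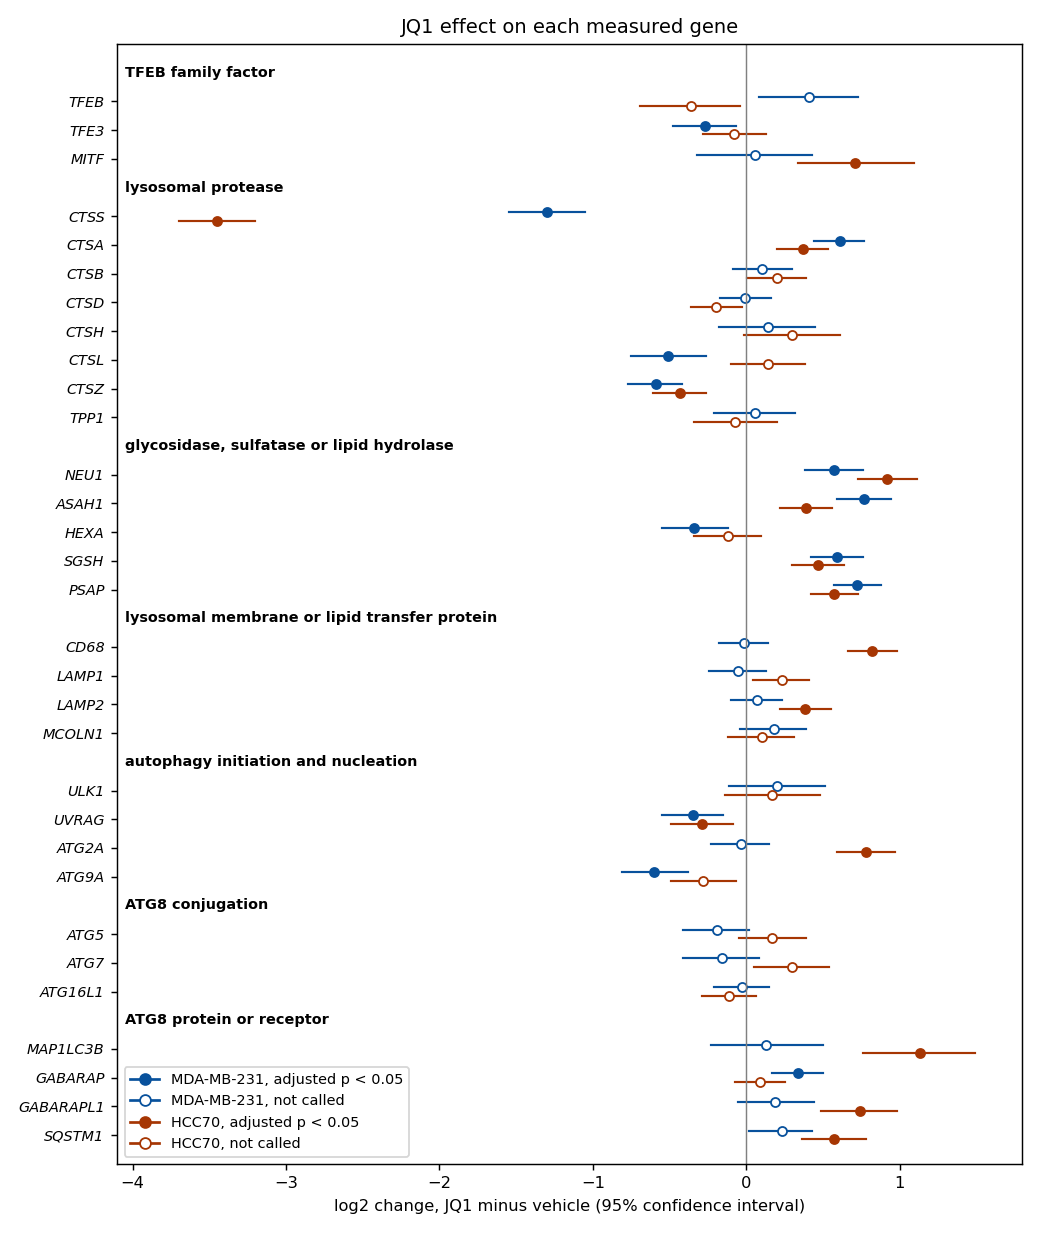
Change in log2 signal under JQ1 (x axis, JQ1 minus vehicle) for each of the 31 measured genes, grouped by role, in MDA-MB-231 (blue) and HCC70 (red-brown); bars are 95% confidence intervals of the limma coefficient and filled points were called at an adjusted p under 0.05. CTSS lies far to the left in both lines. The hydrolases NEU1, ASAH1 and SGSH, and PSAP, which is grouped with them, lie to the right in both.

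The same 5 genes rose in both lines: CTSA, NEU1, ASAH1, SGSH and PSAP, which are 83.3% of the 6 that rose in MDA-MB-231 and 41.7% of the 12 that rose in HCC70. Over all genes the shared rises were 37.9% and 44.6% of those in each line. CTSS, CTSZ and UVRAG fell in both, 42.9% of the 7 falls in MDA-MB-231 and 100% of the 3 in HCC70. Over all genes these shares were 40.5% and 55.0%. The set's 41.7% and 42.9% were thus near the shares of all genes. No gene of the set was called in opposite directions. In neither line were 11 of the 31 called, beside 9318 of all 14884 genes. By separation alone, without a threshold on p, the JQ1 arrays lay wholly above the vehicle arrays for 9 of the 31 genes and wholly below for 8 in MDA-MB-231, where the groups do not overlap for 38.0% of all genes (16.7% higher and 21.3% lower). In HCC70 they lay wholly above for 16 and wholly below for 5, where the groups do not overlap for 37.4% of all genes (17.8% higher and 19.6% lower). Over all genes tested, 4.09% rose in both lines and 6.89% fell in both, and 168 genes had opposite calls.

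Promoter windows show which of the genes searched carry the letters CACGTG, the core of the sites that the TFEB family binds. A match does not say which factor binds there, and binding was not tested. At least 1 RefSeq window of the GRCh38.p14 build, from 250 bases before to 50 bases after a start site, was held for 23 of the 31 genes. The 8 without a window were not searched: CTSS, CTSB, UVRAG, LAMP2, HEXA, ASAH1, SGSH and PSAP. Of these, ASAH1, SGSH and PSAP rose in both lines, and CTSS and UVRAG fell in both. The letters CACGTG, which read the same on both strands, occurred near 5 of the 23 genes (21.7%), NEU1, CTSA, CTSD, LAMP1 and MCOLN1, against 11.0% of the 10749 tested genes with a window. Counted by window, since a gene can have several start sites, that was 5 of 30 windows (16.7%) against 7.26% of all 35116 windows. The longer TCACGTG, searched on both strands and holding CACGTG, was found in the same 5 windows (21.7% of genes against 6.03%, and 16.7% of windows against 3.71%). Of the 5 genes, NEU1 and CTSA rose in both lines, while CTSD, LAMP1 and MCOLN1 were called in neither. MAP1LC3B, CD68, ATG2A, GABARAPL1, SQSTM1 and MITF rose in HCC70 without a match in any window held, as did GABARAP in MDA-MB-231. This says only that these letters are not there. The 6 windows below are shown for that contrast: NEU1 and CTSA (motif and a rise in both lines), LAMP1 (the most occurrences, 6, and no call), and MAP1LC3B, CD68 and ATG2A (no occurrence and a rise in HCC70). They are written 5′ to 3′ on the gene's own strand, with CACGTG in capitals. Positions are counted from the start site as 1, with -1 the base before it: the motif starts at -126 in NEU1, at -42 and -25 in CTSA, and at -192, -176, -159, -142, -28 and -1 in LAMP1. NEU1 lies on the minus strand at chr6:31862772-31863071, CTSA on the plus strand at chr20:45891085-45891384 and LAMP1 on the plus strand at chr13:113296989-113297288. MAP1LC3B lies on the plus strand at chr16:87392086-87392385, CD68 on the plus strand at chr17:7579388-7579687 and ATG2A on the minus strand at chr11:64917160-64917459.
NEU1: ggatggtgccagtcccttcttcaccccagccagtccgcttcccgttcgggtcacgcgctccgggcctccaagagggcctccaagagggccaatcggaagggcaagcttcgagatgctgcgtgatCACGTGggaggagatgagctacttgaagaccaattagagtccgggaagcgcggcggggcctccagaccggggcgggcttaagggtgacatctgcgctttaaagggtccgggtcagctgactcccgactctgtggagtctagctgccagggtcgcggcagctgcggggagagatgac
CTSA: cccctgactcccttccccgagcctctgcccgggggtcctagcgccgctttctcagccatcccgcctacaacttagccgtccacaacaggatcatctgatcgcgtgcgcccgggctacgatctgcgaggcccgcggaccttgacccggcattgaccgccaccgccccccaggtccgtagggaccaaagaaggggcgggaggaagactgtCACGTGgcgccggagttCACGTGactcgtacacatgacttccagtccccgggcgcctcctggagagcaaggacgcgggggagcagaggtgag
LAMP1: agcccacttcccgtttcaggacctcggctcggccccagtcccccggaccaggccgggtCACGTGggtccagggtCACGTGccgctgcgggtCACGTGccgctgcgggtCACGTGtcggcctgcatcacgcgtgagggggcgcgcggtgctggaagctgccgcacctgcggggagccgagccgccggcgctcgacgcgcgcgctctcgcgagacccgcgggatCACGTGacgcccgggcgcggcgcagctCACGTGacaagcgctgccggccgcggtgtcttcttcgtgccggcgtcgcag
MAP1LC3B: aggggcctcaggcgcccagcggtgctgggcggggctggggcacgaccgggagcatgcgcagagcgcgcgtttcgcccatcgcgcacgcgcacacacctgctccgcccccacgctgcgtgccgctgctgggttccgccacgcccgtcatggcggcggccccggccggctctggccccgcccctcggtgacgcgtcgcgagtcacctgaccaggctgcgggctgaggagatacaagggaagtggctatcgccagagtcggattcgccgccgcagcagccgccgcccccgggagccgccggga
CD68: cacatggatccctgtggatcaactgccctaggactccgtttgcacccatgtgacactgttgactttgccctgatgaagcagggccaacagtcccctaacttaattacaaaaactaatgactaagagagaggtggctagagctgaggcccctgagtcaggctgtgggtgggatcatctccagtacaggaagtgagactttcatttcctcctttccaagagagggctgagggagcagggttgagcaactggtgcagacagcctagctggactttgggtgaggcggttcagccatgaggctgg
ATG2A: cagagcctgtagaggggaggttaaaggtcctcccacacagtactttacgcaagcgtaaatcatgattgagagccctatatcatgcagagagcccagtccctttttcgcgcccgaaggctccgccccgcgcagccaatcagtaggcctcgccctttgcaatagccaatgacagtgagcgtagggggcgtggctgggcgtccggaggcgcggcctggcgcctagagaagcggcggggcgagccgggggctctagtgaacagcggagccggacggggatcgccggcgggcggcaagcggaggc

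NEU1, ASAH1, SGSH and HEXA, enzymes that strip sugars, sulfate or lipids, were grouped with PSAP, which is no enzyme but serves such enzymes. This was the role group with the highest share of rises in both lines. Of the 5 genes measured, 4 rose and 1 fell in MDA-MB-231 (median change 0.59) and 4 rose with none falling in HCC70 (median 0.47). Over all genes 10.8% rose in MDA-MB-231 and 9.18% in HCC70. NEU1, the lysosomal sialidase, read 8.14, 8.31 and 8.15 under vehicle and 8.76, 8.74 and 8.82 under JQ1 in MDA-MB-231, and 7.41, 7.28 and 7.50 under vehicle and 8.23, 8.35 and 8.36 under JQ1 in HCC70. Every JQ1 array lay above every vehicle array of its line, and the HCC70 arrays under JQ1 reached the range of MDA-MB-231 under vehicle. The rise was 0.57 ± 0.087 (1.49-fold, adjusted p = 2.8e-04) in MDA-MB-231 and 0.92 ± 0.087 (1.89-fold, adjusted p = 9.5e-06) in HCC70, and the difference between the lines was not called (0.35 ± 0.12, adjusted p = 0.082), though 3 alternatives called it (0.027 to 0.043). CTSA, cathepsin A, is counted here among the proteases but also binds and protects NEU1 in a complex. It read 10.36, 10.38 and 10.26 against 10.92, 10.94 and 10.97 with JQ1 in MDA-MB-231, and 9.52, 9.65 and 9.56 against 9.90, 9.97 and 9.94 in HCC70. The groups did not overlap in either line, and CTSA rose by 0.61 ± 0.076 (adjusted p = 5.5e-05) and 0.37 ± 0.076 (adjusted p = 0.0036). The promoter windows of both partners hold CACGTG, but what binds there was not tested.

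PSAP and ASAH1 also rose in both lines. PSAP encodes prosaposin, which is cut into the saposins that present sphingolipids to their hydrolases. Its arrays in MDA-MB-231 gave 10.88, 10.91 and 10.90 under vehicle and 11.63, 11.64 and 11.59 under JQ1, and those in HCC70 gave 11.21, 11.30 and 11.32 under vehicle and 11.85, 11.85 and 11.85 under JQ1. The JQ1 arrays were the higher ones without overlap in both lines, by 0.72 ± 0.071 (1.65-fold, adjusted p = 7.2e-06) and 0.57 ± 0.071 (1.49-fold, adjusted p = 8.5e-05). ASAH1, acid ceramidase, cleaves ceramide to sphingosine and a fatty acid. In MDA-MB-231 it read 7.32, 7.40 and 7.28 under vehicle and 8.16, 8.05 and 8.08 under JQ1, and in HCC70 7.42, 7.35 and 7.35 under vehicle and 7.76, 7.85 and 7.68 under JQ1. From nearly equal vehicle levels ASAH1 rose by 0.77 ± 0.079 (1.70-fold, adjusted p = 1.1e-05) in MDA-MB-231 and by 0.39 ± 0.079 (1.31-fold, adjusted p = 0.0031) in HCC70. Its rise was the smaller one in HCC70, by 0.38 ± 0.11 (adjusted p = 0.039), a call that 13 of 20 alternative settings lost, among them the replicate block (adjusted p = 0.072) and leaving out any array but MDA-MB-231 vehicle replicate 2 and HCC70 JQ1 replicate 2 (adjusted p = 0.055 to 0.089).

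SGSH, a sulfatase that takes part in heparan sulfate breakdown, read 7.95, 7.99 and 7.91 under vehicle and 8.58, 8.55 and 8.48 under JQ1 in MDA-MB-231, and 7.39, 7.48 and 7.60 under vehicle and 7.94, 7.97 and 7.97 under JQ1 in HCC70. It rose in both lines without overlap, by 0.59 ± 0.078 (adjusted p = 9.7e-05) and 0.47 ± 0.078 (adjusted p = 8.5e-04). HEXA, the alpha subunit of beta-hexosaminidase, went the other way in MDA-MB-231, where it fell by 0.34 ± 0.099 (adjusted p = 0.023). Its adjusted p was 0.063 with arrays centred on their medians and likewise 0.063 after quantile normalization, and it was 0.070, 0.066 and 0.068 without MDA-MB-231 vehicle replicate 1, JQ1 replicate 2 or JQ1 replicate 3. In HCC70 HEXA changed by -0.12 ± 0.099 and was not called (adjusted p = 0.48).

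**Figure D2:**
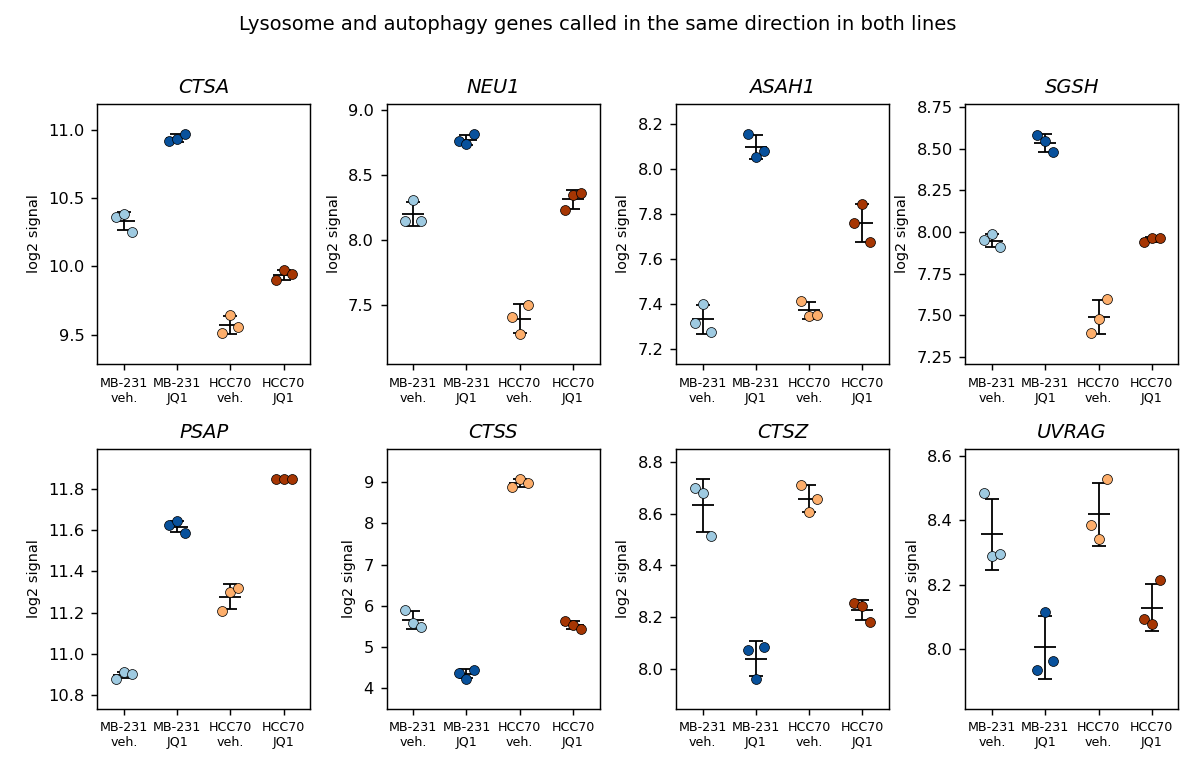
log2 signal (y axis, a separate scale for each gene) on each array for the 8 genes called in the same direction in both lines; points are arrays, long bars the mean and short bars 1 SD of 3 arrays, MB-231 stands for MDA-MB-231 and veh. for vehicle. In each panel the JQ1 points of a line lie wholly above (CTSA, NEU1, ASAH1, SGSH, PSAP) or below (CTSS, CTSZ, UVRAG) its vehicle points.

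Of 8 lysosomal proteases, 1 rose and 3 fell in MDA-MB-231 (12.5% and 37.5%, against 10.8% and 17.0% of all genes), and 1 rose and 2 fell in HCC70 (against 9.18% and 12.5%). In both lines the share rising was near that of all genes. CTSS, cathepsin S, a cysteine protease best known for trimming the invariant chain in antigen-presenting cells, had the largest change of the 31 genes in each line. In MDA-MB-231 it read 5.89, 5.59 and 5.48 under vehicle and 4.38, 4.23 and 4.45 under JQ1, and in HCC70 8.88, 9.08 and 8.98 under vehicle and 5.62, 5.53 and 5.43 under JQ1. HCC70 thus started far above MDA-MB-231 and under JQ1 came down to about the vehicle level of MDA-MB-231, with no overlap of JQ1 and vehicle in either line. The fall in HCC70 was 3.45 ± 0.11 (11.0-fold, adjusted p = 1.8e-09). In MDA-MB-231 CTSS fell by 1.30 ± 0.11 (2.46-fold, adjusted p = 2.7e-06), a lower bound, since its JQ1 mean of 4.35 lay below the lower quartile of all genes on those arrays (4.81). The measured HCC70 fall was greater by 2.16 ± 0.16 (adjusted p = 3.6e-06). Since the MDA-MB-231 fall is a lower bound, this excess is an upper bound and its test does not cover that limit.

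CTSZ, cathepsin Z, a carboxypeptidase, read 8.70, 8.68 and 8.51 under vehicle and 8.07, 7.96 and 8.08 under JQ1 in MDA-MB-231, and 8.71, 8.61 and 8.66 under vehicle and 8.25, 8.24 and 8.18 under JQ1 in HCC70. The lines had nearly the same vehicle level, and CTSZ fell in both, by 0.59 ± 0.082 (adjusted p = 1.3e-04) and 0.43 ± 0.082 (adjusted p = 0.0019). CTSL, cathepsin L, a broad endopeptidase, fell in MDA-MB-231 from 7.77, 7.52 and 7.55 to 7.15, 7.21 and 6.96, by 0.51 ± 0.11 (1.42-fold, adjusted p = 0.0041). HCC70 read 6.78, 6.91 and 6.61 under vehicle and 6.80, 7.03 and 6.90 under JQ1, overlapping groups (0.14 ± 0.11, adjusted p = 0.46). The CTSL effect differed between the lines by 0.65 ± 0.16 (HCC70 minus MDA-MB-231, adjusted p = 0.014). That call was lost (adjusted p = 0.059) without 3 arrays numbered 3 that stood apart: vehicle and JQ1 of MDA-MB-231 and JQ1 of HCC70. Each had the lowest upper quartile of its group (7.62, 7.51 and 7.63 in that order). Their mean correlations within the group were only slightly lower than those of the other arrays (0.9904, 0.9894 and 0.9914).

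The remaining proteases were not called in either line. CTSB changed by 0.10 in MDA-MB-231 and 0.20 in HCC70, CTSD, the aspartic cathepsin, by -0.0067 and -0.20, CTSH, an aminopeptidase, by 0.14 and 0.30, and TPP1, a tripeptidyl peptidase, by 0.055 and -0.073. Their adjusted p-values ran from 0.094 (CTSD in HCC70) to 0.97 (CTSD in MDA-MB-231). In HCC70 3 alternatives called a fall of CTSD (adjusted p = 6.2e-04 to 0.029), 3 a rise of CTSB (0.026 to 0.042) and 1 a rise of CTSH (0.017), and in MDA-MB-231 quantile normalization called a rise of CTSB (0.022). The 95% interval for CTSD in MDA-MB-231 was -0.17 to 0.16.

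CD68 and CTSS are also familiar as macrophage genes, so markers of blood cells were read beside them. Of 8 such markers 4 were measured (CD14, CSF1R, TYROBP and CD163), and 1 fell in each line: CSF1R by 0.45 in MDA-MB-231 and CD14 by 0.38 in HCC70. The summed linear signal of the 4 ran from 189 to 208 under vehicle and 178 to 192 under JQ1 in MDA-MB-231, and from 473 to 527 and 388 to 429 in HCC70. CD163 lay below the lower quartile of genes in all groups, and CD14 carried most of the HCC70 signal (8.52 under vehicle, 8.14 under JQ1). The part of these markers in the CTSS and CD68 changes was not tested. In bulk RNA, fewer cells expressing a gene and less of its RNA per cell cannot be told apart.

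Of 4 measured lysosomal membrane genes, CD68 and LAMP2 rose in HCC70, where 9.18% of all genes rose, and LAMP1 and MCOLN1 were not called. In MDA-MB-231 limma called 0 of the 4 (unadjusted p-values from 0.099 to 0.83). CD68, a heavily glycosylated protein of the late endosomal and lysosomal membrane, read 10.73, 10.89 and 10.81 under vehicle and 10.82, 10.80 and 10.77 under JQ1 in MDA-MB-231, which overlap. In HCC70 it read 9.32, 9.30 and 9.30 under vehicle and 10.10, 10.11 and 10.18 under JQ1, well apart. CD68 rose there by 0.82 ± 0.074 (1.77-fold, adjusted p = 6.3e-06) against -0.017 ± 0.074 in MDA-MB-231 (adjusted p = 0.90), and the difference was 0.84 ± 0.10 (adjusted p = 1.5e-04). LAMP2, a main coat protein of the lysosomal membrane with an isoform used in chaperone-mediated autophagy, read 10.16, 10.18 and 10.07 under vehicle and 10.55, 10.49 and 10.51 under JQ1 in HCC70, a rise of 0.38 ± 0.076 (adjusted p = 0.0027). Its MDA-MB-231 arrays, 10.07, 9.97 and 10.13 under vehicle and 10.12, 10.13 and 10.13 under JQ1, overlapped (0.069 ± 0.076, adjusted p = 0.56), but the difference between the lines was not called (0.31 ± 0.11, adjusted p = 0.072) outside 2 alternatives, the variance trend (0.0032) and genes above the median level (0.021). LAMP1, the sister coat protein, changed by -0.055 ± 0.085 in MDA-MB-231 and 0.23 ± 0.085 in HCC70 (adjusted p = 0.080), where its JQ1 arrays lay above the vehicle arrays and 5 alternatives called a rise (adjusted p = 0.0062 to 0.033). MCOLN1, a calcium channel of the lysosome, changed by 0.18 and 0.10 with adjusted p-values of 0.22 and 0.60. Quantile normalization called a rise of MCOLN1 in MDA-MB-231 (adjusted p = 0.028).

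The 3 TFEB family factors did not move together. TFEB, the best-studied driver of lysosome genes, read 5.79, 5.96 and 5.69 under vehicle and 6.30, 6.23 and 6.13 under JQ1 in MDA-MB-231, where the groups did not overlap. In HCC70 it read 5.90, 5.96 and 5.65 under vehicle and 5.82, 5.15 and 5.45 under JQ1, which overlap, with the JQ1 arrays widely spread. Neither change was called (0.41 ± 0.15, adjusted p = 0.062, and -0.36 ± 0.15, adjusted p = 0.11). Some alternatives called them: 4 did so for the rise in MDA-MB-231, namely each line fitted alone (adjusted p = 0.030), centring (0.035), and leaving out JQ1 replicate 1 (0.023) or 2 (0.031) of HCC70. For HCC70, array weights (-0.57, adjusted p = 0.0039) and leaving out HCC70 JQ1 replicate 1 (-0.53, adjusted p = 0.014) called a fall. The 2 effects, of opposite sign, differed by -0.77 ± 0.21 (HCC70 minus MDA-MB-231, adjusted p = 0.027), a call lost in 9 of 19 alternatives. Leaving out any array but MDA-MB-231 vehicle replicate 2 and JQ1 replicate 3 and HCC70 vehicle replicate 3 and JQ1 replicate 1 lost it (adjusted p = 0.052 to 0.069). TFE3 read 9.17, 9.03 and 9.03 under vehicle and 8.94, 8.70 and 8.77 under JQ1 in MDA-MB-231. It fell there by 0.27 ± 0.095 at an adjusted p of 0.0498, just under the threshold, and 15 of 21 alternatives lost the call, among them leaving out any array but MDA-MB-231 JQ1 replicate 1 and HCC70 vehicle replicate 3 (adjusted p = 0.056 to 0.16). In HCC70 TFE3 changed by -0.078 ± 0.095 (adjusted p = 0.67).

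MITF, the third factor and the master regulator of melanocytes, was the one factor called under JQ1 in HCC70. In HCC70 it read 5.45, 5.38 and 5.51 under vehicle and 6.44, 6.13 and 5.90 under JQ1, a rise of 0.71 ± 0.17 (1.64-fold, adjusted p = 0.0097). MDA-MB-231 gave 5.37, 5.57 and 5.06 under vehicle and 5.31, 5.73 and 5.13 under JQ1, with no separation (0.054 ± 0.17, adjusted p = 0.86). The difference between the lines was not called (0.66 ± 0.25, adjusted p = 0.098), although the replicate number as a block brought it to 0.034. It was also called with array weights (0.041), without the 3 arrays that stood apart (0.042), and without MDA-MB-231 JQ1 replicate 2 (0.031) or vehicle replicate 3 (0.0486). None of 4 measured melanocyte markers was called in either line, their summed linear signal ran from 78.0 to 97.3 over all 12 arrays, and TYR, MLANA and TYRP1 lay below the lower quartile of genes in every group.

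Of 4 genes that start and extend the autophagosome membrane, 2 fell in MDA-MB-231, where 17.0% of all genes fell, and 1 rose and 1 fell in HCC70, where 9.18% rose and 12.5% fell. ATG2A, which carries lipid from the endoplasmic reticulum to the growing membrane, read 8.18, 8.14 and 8.07 under vehicle and 8.15, 8.07 and 8.06 under JQ1 in MDA-MB-231. In HCC70 it started lower, at 6.91, 6.95 and 7.13, and read 7.66, 7.84 and 7.81 under JQ1. It rose there by 0.78 ± 0.087 (1.71-fold, adjusted p = 4.0e-05), against -0.037 ± 0.087 in MDA-MB-231 (adjusted p = 0.80), a difference of 0.81 ± 0.12 (adjusted p = 7.0e-04). ATG9A, the lipid scramblase whose vesicles seed the membrane, went down in MDA-MB-231, from 8.77, 8.70 and 8.43 to 8.10, 8.04 and 7.99. That fall was 0.60 ± 0.097 (1.51-fold, adjusted p = 4.9e-04). HCC70 read 8.29, 8.28 and 8.45 under vehicle and 8.06, 8.10 and 8.03 under JQ1, also without overlap but not called (-0.28 ± 0.097, adjusted p = 0.061). The HCC70 change was called in 5 alternatives (adjusted p = 0.013 to 0.048): each line fitted alone, the variance trend, genes above the median level, array weights, and without MDA-MB-231 vehicle replicate 3. The difference between the lines was not called (adjusted p = 0.16), except with array weights (0.039) and without MDA-MB-231 vehicle replicate 3 (0.031). 

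UVRAG, a partner of the BECN1 lipid kinase complex, read 8.48, 8.29 and 8.30 under vehicle and 7.94, 8.12 and 7.97 under JQ1 in MDA-MB-231, and 8.39, 8.34 and 8.53 under vehicle and 8.10, 8.08 and 8.21 under JQ1 in HCC70. It fell in both lines without overlap, by 0.35 ± 0.092 (adjusted p = 0.012) and 0.29 ± 0.092 (adjusted p = 0.041). The HCC70 call is the weaker one: 10 of 21 alternatives lost it, among them the replicate block (adjusted p = 0.060) and leaving out MDA-MB-231 vehicle replicate 2 or any HCC70 array but JQ1 replicate 3 (adjusted p = 0.0501 to 0.16). The MDA-MB-231 call was lost without vehicle replicate 1 (adjusted p = 0.057) and with quantile normalization (adjusted p = 0.10). ULK1, the kinase that starts autophagy, changed by 0.20 ± 0.14 and 0.17 ± 0.14 and was not called (adjusted p = 0.34 and 0.50).

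The ATG8 proteins and the receptor SQSTM1 had the highest share of rises among the autophagy groups in HCC70, where 3 of 4 rose and none fell, and 1 of 4 rose in MDA-MB-231 (9.18% and 10.8% of all genes rose). MAP1LC3B encodes LC3B, the ATG8 protein most used to mark autophagosomes. In MDA-MB-231 it read 6.13, 5.99 and 5.85 under vehicle and 6.23, 6.08 and 6.06 under JQ1, overlapping, and in HCC70 5.76, 5.61 and 5.01 under vehicle and 6.77, 6.43 and 6.56 under JQ1. HCC70 vehicle replicate 3 was the lowest of the 12, and all 3 JQ1 arrays lay above all vehicle arrays of either line. MAP1LC3B rose in HCC70 by 1.13 ± 0.17 (2.18-fold, adjusted p = 3.4e-04), the largest rise of the set, against 0.13 ± 0.17 in MDA-MB-231 (adjusted p = 0.61). The difference, 0.99 ± 0.24 (adjusted p = 0.013), was lost without the 3 arrays that stood apart (adjusted p = 0.056).

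GABARAPL1, an ATG8 protein of the other subfamily, read 6.37, 6.28 and 6.01 under vehicle and 6.42, 6.60 and 6.21 under JQ1 in MDA-MB-231, and 6.17, 6.25 and 6.24 under vehicle and 6.98, 6.97 and 6.93 under JQ1 in HCC70. Only the HCC70 groups stood apart, with a rise of 0.74 ± 0.11 (1.67-fold, adjusted p = 4.2e-04). The effects differed by 0.55 ± 0.16 (adjusted p = 0.037), a call that 10 of 20 alternatives lost, each of them leaving out 1 array (any but MDA-MB-231 JQ1 replicate 2 and vehicle replicate 3; adjusted p = 0.054 to 0.088). SQSTM1, or p62, hands ubiquitin-tagged cargo to ATG8 proteins. It read 7.73, 7.73 and 7.88 under vehicle and 8.18, 8.41 and 8.46 under JQ1 in HCC70, a rise of 0.57 ± 0.096 (adjusted p = 8.7e-04), and 7.89, 8.06 and 8.07 under vehicle and 8.17, 8.27 and 8.26 under JQ1 in MDA-MB-231. The MDA-MB-231 arrays did not overlap either, but the change of 0.23 ± 0.096 was not called (adjusted p = 0.10), nor was the difference between the lines (adjusted p = 0.12). A rise in MDA-MB-231 was called in 3 alternatives (adjusted p = 0.028 to 0.046), and the difference with array weights (0.048).

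GABARAP was the ATG8 gene that rose in MDA-MB-231, from 11.02, 11.08 and 11.07 to 11.43, 11.34 and 11.41, by 0.34 ± 0.074 (1.26-fold, adjusted p = 0.0044). HCC70 changed by 0.090 ± 0.074 with overlapping groups (adjusted p = 0.49), and the difference was not called (adjusted p = 0.15), except with the variance trend (0.0063). The enzymes that attach ATG8 proteins to lipid, ATG5, ATG7 and ATG16L1, were called in neither line. ATG7, the activating enzyme of the system, changed by -0.16 ± 0.11 in MDA-MB-231 and 0.30 ± 0.11 in HCC70 (adjusted p = 0.33 and 0.085), and the difference of 0.46 ± 0.16 missed the threshold (adjusted p = 0.077). In HCC70 6 alternatives called the rise of ATG7 (adjusted p = 0.0099 to 0.0487), 1 of them the fit without HCC70 vehicle replicate 1 (0.044). ATG5 changed by -0.19 and 0.17 and ATG16L1 by -0.028 and -0.11. Array weights called a rise of ATG5 in HCC70 (adjusted p = 0.023).

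**Figure D3:**
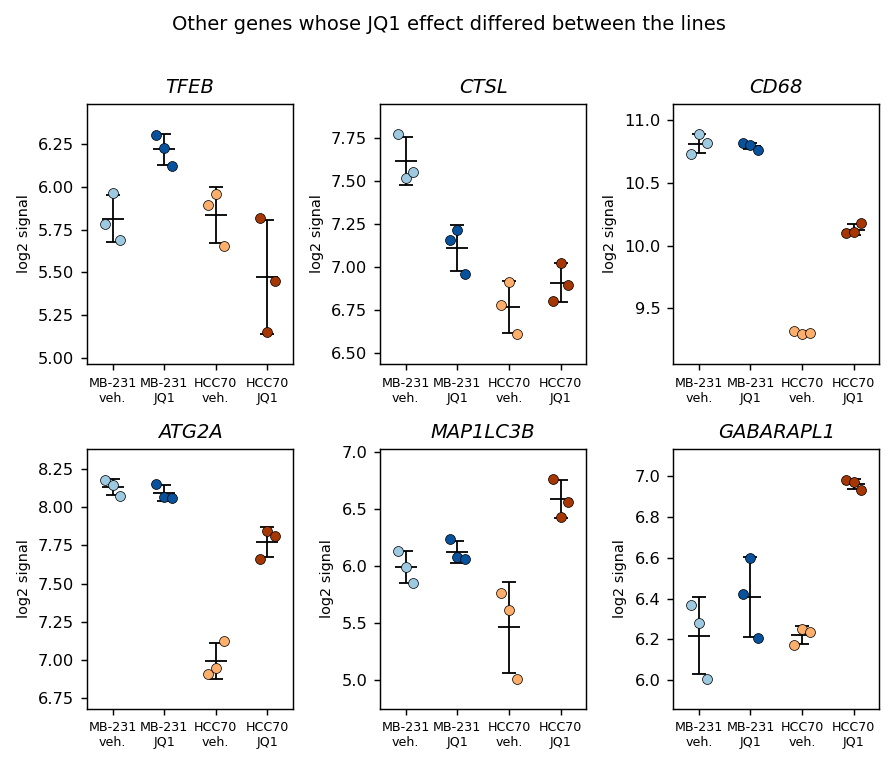
log2 signal (y axis, a separate scale for each gene) on each array for 6 of the 8 genes whose JQ1 effect differed between the lines; points are arrays, long bars the mean and short bars 1 SD of 3 arrays, MB-231 stands for MDA-MB-231 and veh. for vehicle. CD68, ATG2A, MAP1LC3B and GABARAPL1 rise in HCC70 with overlapping groups in MDA-MB-231, and CTSL falls in MDA-MB-231 with overlapping groups in HCC70.

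The test of the difference between the lines called 8 of the 31 genes (25.8%, against 15.0% of all genes tested). In the fit of genes above the median level alone it called 2336 of 7442 genes (1547 upward and 789 downward). Of the 27 genes of the set in that fit it called 8 upward and 1 downward, a share near that of all such genes. In the main fit the effect was higher in HCC70 for 5 (CD68, ATG2A, MAP1LC3B, CTSL and GABARAPL1; 9.02% of all genes) and lower for 3 (CTSS, TFEB and ASAH1; 5.95%). CTSS, CD68 and ATG2A kept their call in every alternative tested for them except, for CD68 and ATG2A, a required log2 size of at least 1. The other 7 genes called in 1 line and not in the other that are missing from these 8 (GABARAP, HEXA, ATG9A and TFE3 in MDA-MB-231, and MITF, LAMP2 and SQSTM1 in HCC70) are therefore not shown to differ between the lines in this fit. Across the 31 genes the changes in the 2 lines correlated at r = 0.69 (Spearman's rho 0.53), and at 0.48 (rho 0.48) without CTSS. Over all 14884 genes r was 0.42 (rho 0.38). These correlations run across genes measured on the same arrays and are descriptive.

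**Figure D4:**
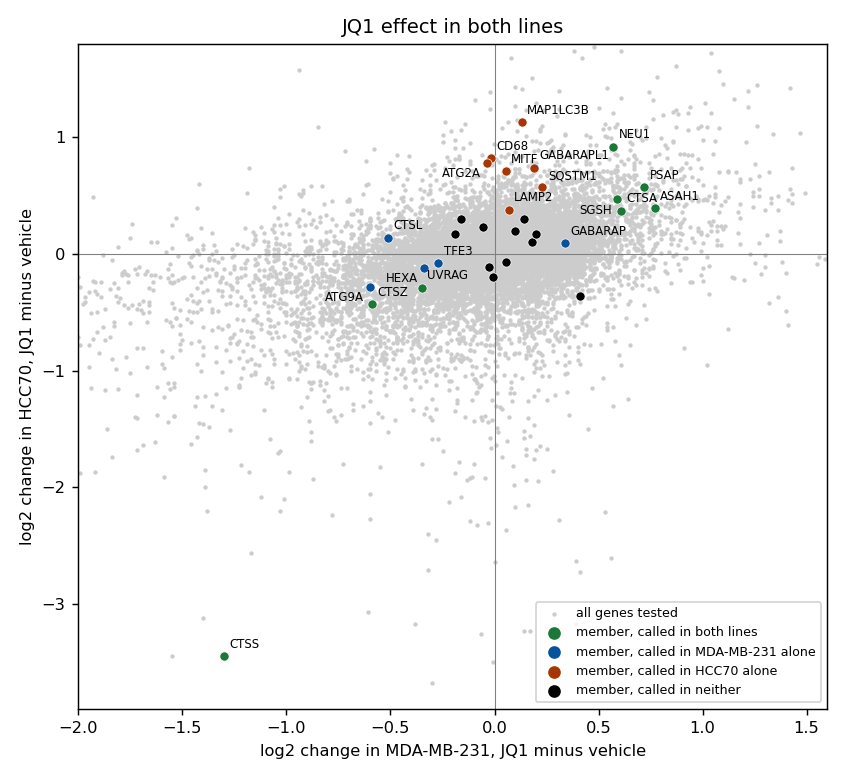
log2 change under JQ1 in MDA-MB-231 (x axis) against HCC70 (y axis); grey points are all genes tested (108 lie outside the axes) and coloured points the 31 lysosome and autophagy genes by where they were called. CTSS sits alone at the lower left, and CD68, ATG2A, MITF and MAP1LC3B lie near 0 on the x axis and high on the y axis.

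Before any drug the lines already differed in most of these genes. Under vehicle 21 of the 31 were called (67.7%, against 47.0% of all genes), 5 higher in HCC70 (23.8% of all genes) and 16 lower (23.2%), with a median difference of -0.25 (HCC70 minus MDA-MB-231) against 0.033 over all genes. In the fit of genes above the median level alone, 5400 of 7442 genes were called (2721 higher in HCC70 and 2679 lower). Of the 27 genes of the set in that fit, 5 were called higher and 16 lower. The set's share of calls there was near that of all such genes. CTSS was higher in HCC70 by 3.33 ± 0.11 (adjusted p = 1.2e-10), LAMP1 by 0.90 ± 0.085, CTSH by 0.59 ± 0.14, ATG16L1 by 0.43 ± 0.082 and PSAP by 0.38 ± 0.071. The 4 genes furthest below MDA-MB-231 in HCC70 were TPP1 (-1.75 ± 0.12, adjusted p = 8.8e-08), TFE3 (-1.74 ± 0.095, adjusted p = 7.7e-09), CD68 (-1.50 ± 0.074, adjusted p = 2.9e-09) and ATG2A (-1.14 ± 0.087, adjusted p = 2.0e-07). HEXA was lower in HCC70 by 0.93, CTSL by 0.85, NEU1 by 0.81, CTSA by 0.76, MCOLN1 by 0.69, CTSB by 0.68, ATG7 by 0.61, CTSD by 0.55, MAP1LC3B by 0.53, SGSH by 0.46, ATG9A by 0.30 and GABARAP by 0.25. Of these, MAP1LC3B lost its call when vehicle replicate 1 of MDA-MB-231 was left out (adjusted p = 0.071) and when vehicle replicate 3 of HCC70 was (0.073), GABARAP without HCC70 vehicle replicate 3 (adjusted p = 0.061), and ATG9A without vehicle replicate 1 or 2 of either line (adjusted p = 0.073 to 0.10). The vehicle arrays enter both this comparison and the JQ1 effects, so the 2 are given side by side only. CD68 had means of 9.31 under vehicle and 10.13 under JQ1 in HCC70 beside 10.81 in MDA-MB-231 under vehicle, and ATG2A 6.99 and 7.77 beside 8.13. MAP1LC3B had 5.46 and 6.59 beside 5.99, the one of the 3 whose JQ1 mean in HCC70 lay above MDA-MB-231.

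The rest of the pathway came from lists of 135 further genes, of which 75 were measured. It also showed mostly rises in HCC70 and both directions in MDA-MB-231. These lists too were chosen with earlier results of these data known, so they are no independent check of the genes above. Their shares were not compared with those of genes above the median level. In MDA-MB-231 their share of falls was near that of all genes. In MDA-MB-231 21 rose and 15 fell (28.0% and 20.0%, against 10.8% and 17.0% of all genes), and in HCC70 22 rose and 4 fell (29.3% and 5.33%, against 9.18% and 12.5%). Of 16 other hydrolases, 7 rose and 5 fell in MDA-MB-231 and 8 rose and 2 fell in HCC70. LGMN, the asparaginyl endopeptidase that matures several cathepsins, rose in both lines, by 1.34 ± 0.086 (2.53-fold, adjusted p = 1.8e-07) and 1.03 ± 0.086 (2.05-fold, adjusted p = 3.4e-06). CTSV, a close relative of cathepsin L, rose in HCC70 by 1.13 ± 0.098 (adjusted p = 4.5e-06), and CTSO, another cysteine cathepsin, fell there by 1.18 ± 0.18 (adjusted p = 3.8e-04). The JQ1 mean of CTSO in HCC70, 4.85, lay just above the lower quartile of genes (4.81), so the size of its fall is uncertain. In MDA-MB-231 IDS, a sulfatase, rose by 0.73, while GALC, the galactosylceramidase, fell by 1.56 ± 0.15 (adjusted p = 7.2e-06) and ARSB, another sulfatase, by 1.07.

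Of 8 other membrane genes 2 rose and 2 fell in MDA-MB-231, and 3 rose and 1 fell in HCC70. Over all genes 10.8% rose and 17.0% fell in MDA-MB-231, and 9.18% rose and 12.5% fell in HCC70. The membrane genes' share of falls in HCC70, 12.5%, was thus that of all genes. The shares falling in MDA-MB-231 among the machinery genes (13.0%) and receptors (11.1%) below were under that of all genes. LAMP3, an inducible member of the LAMP family, rose in MDA-MB-231 by 1.23 ± 0.11 (2.35-fold, adjusted p = 3.5e-06). TPCN1, a cation channel of endolysosomes, rose in both lines, by 0.60 and 0.44, and the tetraspanin CD63 fell in both, by 0.29 and 0.49. Of 23 other autophagy machinery genes, 7 rose and 3 fell in MDA-MB-231 (30.4% and 13.0%), and 5 rose and 0 fell in HCC70 (21.7% rising). The ATG8 gene GABARAPL2 (0.60) and the membrane scramblase gene VMP1 (0.45) rose in MDA-MB-231, and ATG3, the enzyme that hands ATG8 to its lipid, fell by 0.45, as did the fusion SNARE VAMP8 by 0.37. In HCC70 ATG2B, the paralog of ATG2A, rose by 0.67 and EPG5, a fusion tether, by 0.37. Of 9 other receptors, 2 rose (22.2%) and 1 fell (11.1%) in MDA-MB-231 (TOLLIP 0.36, NCOA4 0.23, FUNDC1 -0.70). In HCC70 3 rose (33.3%), led by the mitophagy receptor BNIP3 (1.29 ± 0.093, 2.44-fold, adjusted p = 1.0e-06). The call of BNIP3L, a relative of BNIP3 and 1 of the 3, was lost with the replicate block (adjusted p = 0.062), with each line fitted alone (0.059), without the 3 arrays that stood apart (0.093) and without 1 array in 5 of 12 cases (adjusted p = 0.059 to 0.13): HCC70 vehicle replicates 1, 2 and 3 and JQ1 replicates 2 and 3. The NCOA4 call was lost with the replicate block (adjusted p = 0.059) and without 1 array in 9 of 12 cases (adjusted p up to 0.15), that of TOLLIP in 4 (up to 0.083) and that of CD63 in MDA-MB-231 in 4 (up to 0.10). Centring lost CD63 there (adjusted p = 0.073), and quantile normalization VAMP8 (adjusted p = 0.052).

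**Figure D5:**
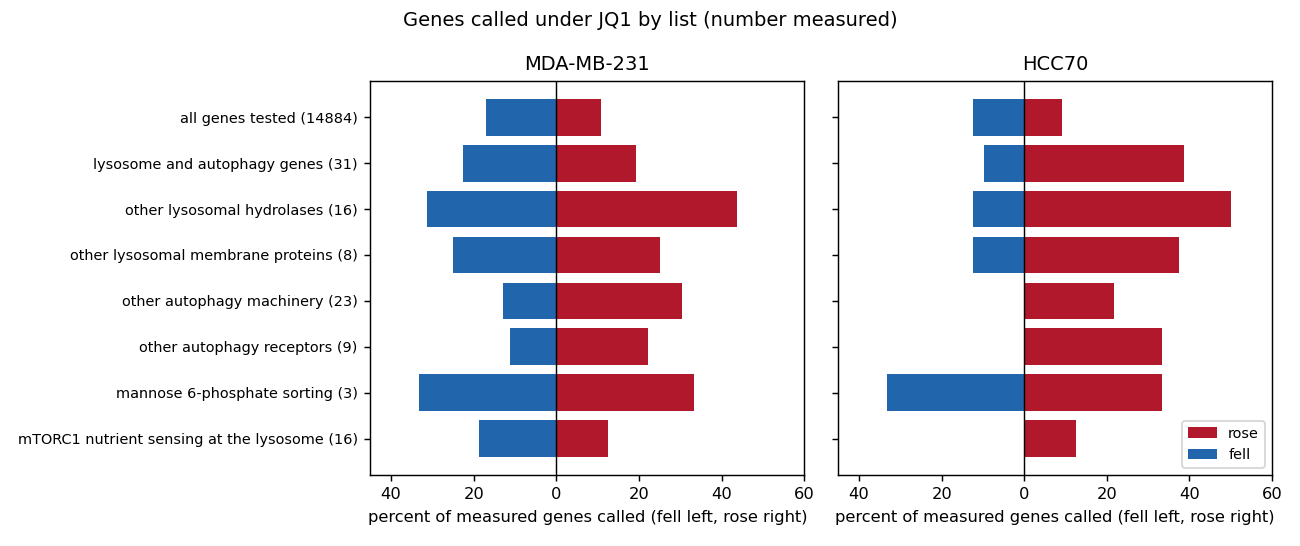
Percent of measured genes called as risen (red, to the right of 0) or fallen (blue, to the left) under JQ1 in MDA-MB-231 and HCC70, for all genes tested, the 31 measured lysosome and autophagy genes and 6 further pathway lists, with the number measured in brackets. In HCC70 the red bar of the 31 genes (38.7%) is longer than that of all genes (9.18%), and in MDA-MB-231 the bars are 19.4% and 10.8%.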

How the data were processed

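The values used are log2 transcript cluster signals as deposited by the authors; RMA, oligo and limma are named, without versions, in the submitters' processing notes, and RNA input was 150 ng per the labels. No genome build is named (not given in the sources used here). Of 53617 clusters 16098 had 1 gene symbol in the platform annotation, 0 had several and 37519 had none. Where several clusters shared a symbol (779 genes) the brightest on average was kept, leaving 14884 genes; each of the 31 members measured had 1. Columns of other series numbered 0. A limma 3.58.1 model of the 4 group means (R 4.3.3, statmod 1.5.0; lmFit and eBayes) was fitted over the 12 arrays, and the procedure was tested on simulated data. No dim genes were removed; a change ending below the lower quartile of genes is read as a bound. The number of arrays limits the precision. The 46 members and all lists were chosen with earlier results of these data known. Every member may be named; of each further list the called genes with the 2 smallest p in each direction were named.

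Each choice was varied in turn: a replicate block, each line fitted alone, robust moderation with a variance trend, only genes brighter than the median, averaged clusters, centring, quantile normalization, array weights, a minimum log2 change of 1, each array left out, and 3 arrays numbered 3 left out together. Replicate numbers were checked as pairs by correlating deviations from group means over genes: in MDA-MB-231 same-numbered arrays correlated at 0.155, 0.121 and 0.362 and other pairs at -0.250 to 0.121, so the numbers were read as possible pairs there, from the data and not the labels. Only the arrays numbered 3 stood clearly above the other pairs, since vehicle 2 with JQ1 1 also gave 0.121. The main fit did not use the pairs, and the replicate block was run as an alternative. In HCC70 they correlated at -0.059, 0.015 and 0.070 and were not.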

Additional observations from a re-analysis of the deposited data

Results flagged for a closer look

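A test of the difference itself, in limma, called the JQ1 effect on 8 of the 31 genes as unlike between the lines; values are HCC70 minus MDA-MB-231, with adjusted p over all 14884 genes. CTSS, the cysteine protease, differed by -2.16 ± 0.16 (3.6e-06) and fell in both lines, with a JQ1 level in MDA-MB-231 below the lower quartile of genes, so that this size is an upper bound. CD68, the lysosomal membrane glycoprotein, differed by 0.84 ± 0.10 (1.5e-04), ATG2A, the lipid transfer protein, by 0.81 ± 0.12 (7.0e-04), MAP1LC3B, which encodes LC3B, by 0.99 ± 0.24 (0.013) and GABARAPL1, another ATG8 gene, by 0.55 ± 0.16 (0.037); all 4 rose in HCC70 and were not called in MDA-MB-231. CTSL, cathepsin L, differed by 0.65 ± 0.16 (0.014) and fell in MDA-MB-231. TFEB differed by -0.77 ± 0.21 (0.027) and was called in neither line. ASAH1, acid ceramidase, differed by -0.38 ± 0.11 (0.039) and rose in both.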

How the results depend on the processing

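Outside a required log2 change of at least 1, the alternatives kept 10 of 13 calls among the 31 genes in MDA-MB-231, 14 of 15 in HCC70, 3 of 8 for the difference and 18 of 21 in the vehicle comparison. Requiring a log2 change of at least 1 left 648 genes in MDA-MB-231 (119 up, 529 down), 380 in HCC70 (89, 291), 607 for the difference (374, 233) and 2205 in the vehicle comparison (1137, 1068), and of the 31 genes 0 up and 1 down, 1 and 1, 0 and 1, and 1 and 4. Quantile normalization left 4 falls in MDA-MB-231 among the 31 genes. Array weights called 5110 genes in HCC70 (2415 up, 2695 down), with 5 falls among the 31 there. For the difference they called 12 of the 31 upward, where 1879 of all genes were upward against 1342 in the main fit. A variance trend with robust moderation gave 5 falls among the 31 in HCC70 (2049 of all genes). It gave 9 differences upward and 7 downward (1674 and 1057 of all genes, against 1342 and 886 in the main fit). Among genes above the median level 8 differences of the set were upward and 1 downward (1547 and 789 of all such genes). Without the 3 arrays numbered 3 that stood apart 1 was downward (814 of all genes). The cause of these shifts was not tested, apart from the fewer genes or arrays that the alternative itself leaves.

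Leaving out each array in turn gave 6 to 7 rises and 4 to 7 falls in MDA-MB-231, 12 to 13 and 2 to 4 in HCC70, 4 to 8 upward and 1 to 3 downward differences, and 5 to 6 and 14 to 17 between the vehicle-treated lines. The 4 falls were without MDA-MB-231 vehicle replicate 1, and the 8 upward differences without MDA-MB-231 vehicle replicate 3. All genes called ran from 3355 to 4236, 2506 to 3359, 1748 to 2376 and 6383 to 7100.

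With 1 exception, SIAE, signs that turned belonged to changes not called. In MDA-MB-231 centring turned CTSD to 0.059, CD68 to 0.049, LAMP1 to 0.010, ATG2A to 0.028 and ATG16L1 to 0.037, and quantile normalization turned CD68 to 0.0096, LAMP1 to 0.050, ATG2A to 0.10 and ATG16L1 to 0.11. TPP1 turned to -0.022 with array weights and -0.054 without the 3 arrays, and the UVRAG difference to -0.032 with quantile normalization. SIAE, a sialic acid esterase gene called as lower in HCC70 (-0.45), turned to 0.074 (not called) with the mean of its clusters. With single arrays left out CTSD in MDA-MB-231 ran from -0.028 to 0.026, TPP1 from -0.026 to 0.21, CD68 from -0.056 to 0.022, ATG16L1 from -0.073 to 0.019, MITF from -0.12 to 0.18, ULK1 in HCC70 from -0.028 to 0.28 and the UVRAG difference from -0.0025 to 0.12.

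With the replicate block 4210 genes were called in MDA-MB-231, 3236 in HCC70 and 2171 for their difference; among the 31 genes it lost UVRAG in HCC70 and ASAH1 for the difference (0.072) and added MITF for the difference. The block lies within a line, so it could not be used between the lines; a block shared by number, added after the data were seen, called 7241 genes there.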

Other observations

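Genes of nutrient sensing at the lysosome and of enzyme delivery to it were read as well. The Rag GTPases bring mTORC1 to the lysosomal membrane, and of 16 measured genes of this system 2 rose and 3 fell in MDA-MB-231, and 2 rose and 0 fell in HCC70. These shares (12.5% and 18.8% in MDA-MB-231, and 12.5% rising in HCC70) were near those of all genes, 10.8%, 17.0% and 9.18%; 12.5% of all genes fell in HCC70. RRAGD, a Rag GTPase, fell in MDA-MB-231 by 1.26 ± 0.21 (2.40-fold, adjusted p = 5.0e-04), as did RHEB, the GTPase that switches mTORC1 on, by 0.65, while TSC2 and TSC1, which restrain RHEB, rose by 0.41 and 0.27. In HCC70 RRAGC rose by 0.59 and RRAGB by 0.39. TSC1 lost its call (adjusted p = 0.061 to 0.070) when replicate 3 of either MDA-MB-231 group or replicate 1 of its JQ1 group was left out, and RRAGB without 1 of 4 HCC70 arrays, JQ1 replicates 1 and 2 and vehicle replicates 2 and 3 (adjusted p = 0.058 to 0.12). In mannose 6-phosphate sorting (3 measured, 33.3% rising and 33.3% falling in each line) the receptor gene IGF2R rose in both lines, by 0.31 and 0.69 (in MDA-MB-231 an adjusted p of 0.0513 without the 3 arrays numbered 3), and NAGPA, the uncovering enzyme, fell in both, by 0.83 and 0.97.

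OSTM1, a subunit of the lysosomal chloride transporter, was called in opposite directions: it fell by 0.83 ± 0.14 in MDA-MB-231 and rose by 0.58 in HCC70, a difference of 1.41 ± 0.20 (adjusted p = 4.6e-04).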
